A study of Homo sapiens with 4 samples.

Results

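The genes examined here were 10 response genes and ligands of bone morphogenetic protein (BMP) and transforming growth factor-β (TGF-β) signaling, ID1, ID2, ID3, ID4, SMAD6, SMAD7, BMP4, INHBA, TGFBI and TGFB1, out of 26506 gene symbols in the deposited tables. They were chosen by name, with earlier results of these data known, so their counts below are not those of an independent list. Each was present in the tables of both cell lines. RNA sequencing compared HeyC2 and SKOV3, established human ovarian cancer cell lines, after lipofection with a pCMV6 plasmid carrying TET1, a dioxygenase that oxidises 5-methylcytosine, or with the empty plasmid (control, labelled wild-type). All cells, the controls included, were kept in Geneticin, and TET1 was driven by the CMV promoter of the plasmid and not by its own. The labels do not say whether the selected cells were a pool or a clone. There was 1 library per condition and cell line, 4 in all, so no difference has a replicate check and no test or p-value is given.

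BMP and TGF-β ligands bind pairs of type I and type II serine/threonine kinase receptors, which phosphorylate receptor-regulated SMAD proteins. BMP receptors act mainly through SMAD1, SMAD5 and SMAD9, and TGF-β and activin receptors through SMAD2 and SMAD3, in both cases together with SMAD4. The ID genes are direct targets of BMP signaling. Their products are helix-loop-helix proteins without a DNA-binding region, which hold E proteins away from DNA and restrain differentiation. SMAD6 and SMAD7 are inhibitory SMADs that the pathway itself induces, SMAD6 acting mainly on the BMP branch and SMAD7 on both.

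The GAPDH value of each TET1 library was identical to that of its control, at 5417.35 FPKM in HeyC2 and 2248.44 FPKM in SKOV3 (FPKM, fragments per kilobase of transcript, scaled to the mapped fragments of the library). The TET1 columns had been multiplied by 3.23 in HeyC2 and 1.35 in SKOV3, and all FPKM below are given with this constant divided out. A change is log2((TET1 + 1)/(control + 1)) minus the median of that quantity over all genes tested in the cell line, and is called the relative log2 change. This median was 0.06 in HeyC2 and 0.19 in SKOV3. A gene was tested where its mean FPKM over the libraries compared was at least 1, and was called where it lay at least 1.5-fold from the median. The approximate depth was 6650000 to 7300000 fragments per library. TET1 was at 0.20 FPKM in the HeyC2 control and 0.52 FPKM in HeyC2 TET1, and at 0.43 and 1.80 FPKM in SKOV3. These values rest on about 14 and 33 fragments in HeyC2 and 30 and 113 in SKOV3. In HeyC2 TET1 was under the expression minimum and was not tested. The epithelial markers KRT8, KRT18 and PAX8 were at 74.6 FPKM or more in every library, WT1 and MUC16 were under 1 FPKM in all, and EPCAM was at 0.09 and 0.38 FPKM in HeyC2. KRT7, another epithelial keratin, was at 290.0 FPKM in the control and 1120 FPKM with TET1 in HeyC2 and at 1540 and 22.0 FPKM in SKOV3, so that it moved in the directions of ID1 and ID3 in both lines. KRT8 moved in the opposite directions in FPKM in both lines. KRT18 was nearly unchanged in HeyC2 and higher with TET1 in SKOV3, and PAX8 was higher with TET1 in both lines. The epithelial markers thus did not move together. The part of KRT7 in the differences below was not tested. All 4 immune markers were under 1 FPKM in every library. In these bulk samples, fewer cells expressing a gene and less RNA per cell cannot be told apart.

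In SKOV3 TET1, all 4 ID genes and SMAD6 were lower than in the control, while TGFB1 and TGFBI were higher. In HeyC2 TET1, ID1 and ID3 were higher, and the 6 other members that could be tested lay within 1.5-fold of the all-gene median. In SKOV3, 10 of 10 members were tested, 3 were called higher and 6 lower, where 20.7% of all 13013 tested genes were called higher and 18.2% lower. In HeyC2, 8 of 10 members were tested, 2 were called higher and 0 lower, where 12.5% of all 11894 tested genes were called higher and 9.17% lower. The median relative log2 change of the tested members was -1.08 in SKOV3 and 0.18 in HeyC2, against 0 over all tested genes by construction. The middle 50% of all tested genes spanned -0.44 to 0.48 in SKOV3 and -0.28 to 0.30 in HeyC2.

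**Figure D1:**
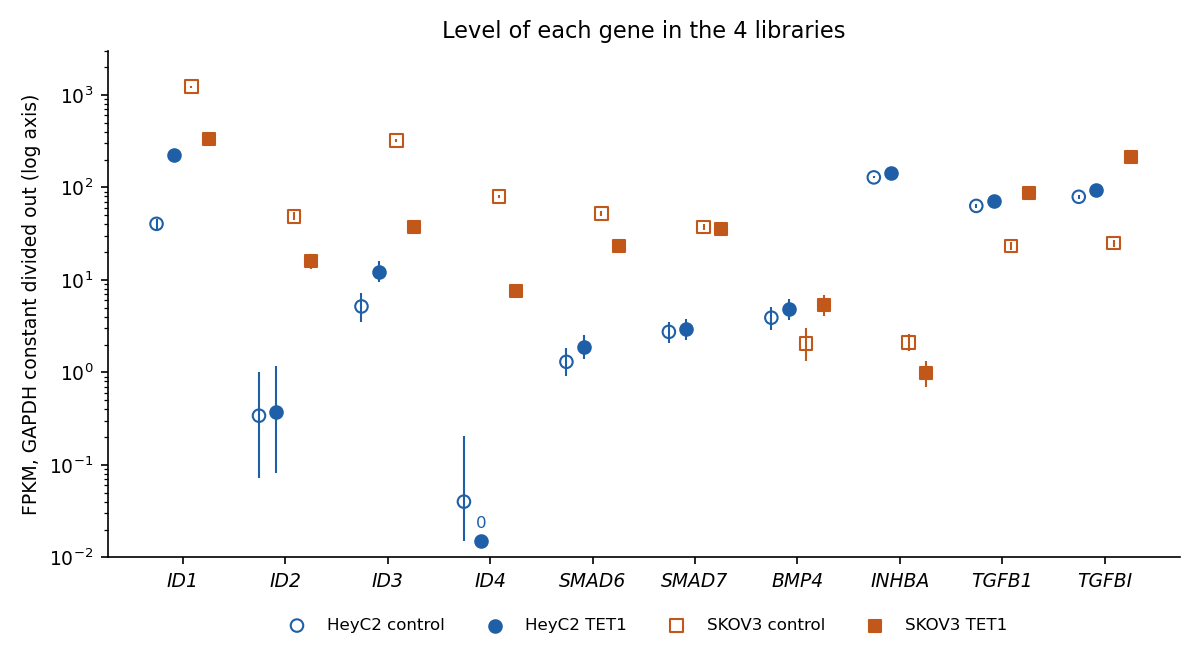
FPKM of each gene in the 4 libraries on a log axis, with the GAPDH constant divided out (open symbols, control; filled symbols, TET1; circles, HeyC2; squares, SKOV3); vertical lines are approximate 95% Poisson intervals that cover counting error only, and a value of 0 is drawn at the bottom and marked 0. ID1 moves from 40.3 to 225.4 FPKM in HeyC2 and from 1232 to 335.3 FPKM in SKOV3, and INHBA is above 100 FPKM in HeyC2 and under 3 FPKM in SKOV3.

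ID1 (chromosome 20, 30193086 to 30194318 on GRCh37, plus strand), the best-known BMP target, was at 40.3 FPKM in the HeyC2 control and 225.4 FPKM in HeyC2 TET1. In SKOV3 it was at 1232 FPKM in the control and 335.3 FPKM in TET1. TET1 libraries were thus 5.59-fold higher than the control in HeyC2 and 3.67-fold lower in SKOV3. The relative log2 change was 2.40 in HeyC2, where 40 of 11894 genes lay higher. In SKOV3 it was -2.07, and 103 of 13013 genes lay lower. The 4 values rest on about 255, 1217, 7041 and 1835 fragments. Counting error alone gave 95% intervals of 2.23 to 2.63 for the relative log2 change in HeyC2 and -2.14 to -1.995 in SKOV3, taken without a pseudocount, here and below. The all-gene median subtracted from values without a pseudocount was the one taken with it. Both intervals exceed the 1.5-fold limit, which is 0.585 on the log2 scale.

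ID3 (chromosome 1, 23884417 to 23885992, minus strand), which is often induced together with ID1, moved in the same directions as ID1. It was at 5.16 FPKM in the HeyC2 control and 12.3 FPKM in HeyC2 TET1, on about 31 and 64 fragments. The SKOV3 values were 320.7 FPKM in the control and 37.2 FPKM in TET1. The relative log2 change was 1.05 in HeyC2, with a counting interval of 0.55 to 1.86, whose lower end is inside the 1.5-fold limit. In SKOV3 it was -3.26, with a counting interval of -3.52 to -3.08, and 31 genes lay lower.

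ID2 (chromosome 2, 8818975 to 8824591, plus strand) and ID4 (chromosome 6, 19837601 to 19842428, plus strand) were close to absent in HeyC2. ID2 was at 0.34 FPKM in the HeyC2 control and 0.37 FPKM in TET1, about 3 fragments each, and was not tested. ID4 was at 0.04 FPKM in the HeyC2 control and listed at 0 in TET1, so no change could be given. Both were expressed in SKOV3. There ID2 was at 48.6 FPKM in the control and 15.8 FPKM in TET1, a relative log2 change of -1.75. ID4 was at 79.8 FPKM in the SKOV3 control and 7.57 FPKM in TET1. Its relative log2 change of -3.43 was the lowest among the 10 members, with 23 of 13013 genes lower. The counting intervals were -2.12 to -1.51 for ID2 and -3.81 to -3.37 for ID4. The window of ID2 overlaps the antisense gene ID2-AS1, listed at 0 to 1.44 FPKM. No source used here says that counting used strand, and without it reads of the partners cannot be told apart.

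The summed FPKM of ID1 to ID4 was 45.9 and 238.1 in HeyC2, control and TET1, and 1681 and 395.9 in SKOV3. Shares and ratios within a library do not depend on the scaling. ID1 made up 87.9% of this sum in the control and 94.7% with TET1 in HeyC2, and 73.3% and 84.7% in SKOV3. The ratio of ID1 to ID3 was 7.82 and 18.3 in HeyC2 and 3.84 and 9.0 in SKOV3, in control and TET1. ID1 thus held a larger share in the TET1 library of each line, although the sum was higher with TET1 in HeyC2 and lower in SKOV3. ID4 made up 4.75% of the sum in SKOV3 control cells and 1.91% after TET1.

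The inhibitory SMAD genes differed from each other in SKOV3. SMAD6 (chromosome 15, 66994574 to 67075187, plus strand) was at 52.3 FPKM in the SKOV3 control and 23.5 FPKM in TET1, a relative log2 change of -1.31 with a counting interval of -1.49 to -1.20. SMAD7 (chromosome 18, 46446223 to 46477335, minus strand) was at 37.4 FPKM in the SKOV3 control and 35.1 FPKM in TET1. Its relative log2 change was -0.28, inside the 1.5-fold limit, with a counting interval of -0.43 to -0.14. In HeyC2 both were low. SMAD6 was at 1.30 FPKM in the control and 1.90 FPKM in TET1, and SMAD7 at 2.74 and 2.93 FPKM. Their relative log2 changes were 0.28 and 0.01, and both counting intervals, -0.17 to 1.17 and -0.49 to 0.57, include 0. The ratio of SMAD7 to SMAD6 within a library was 2.11 and 1.54 in HeyC2 and 0.715 and 1.49 in SKOV3, in control and TET1. The counting intervals of the levels overlapped in HeyC2 TET1, at 1.41 to 2.55 FPKM for SMAD6 and 2.24 to 3.74 FPKM for SMAD7, so their order is not resolved there.

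**Figure D2:**
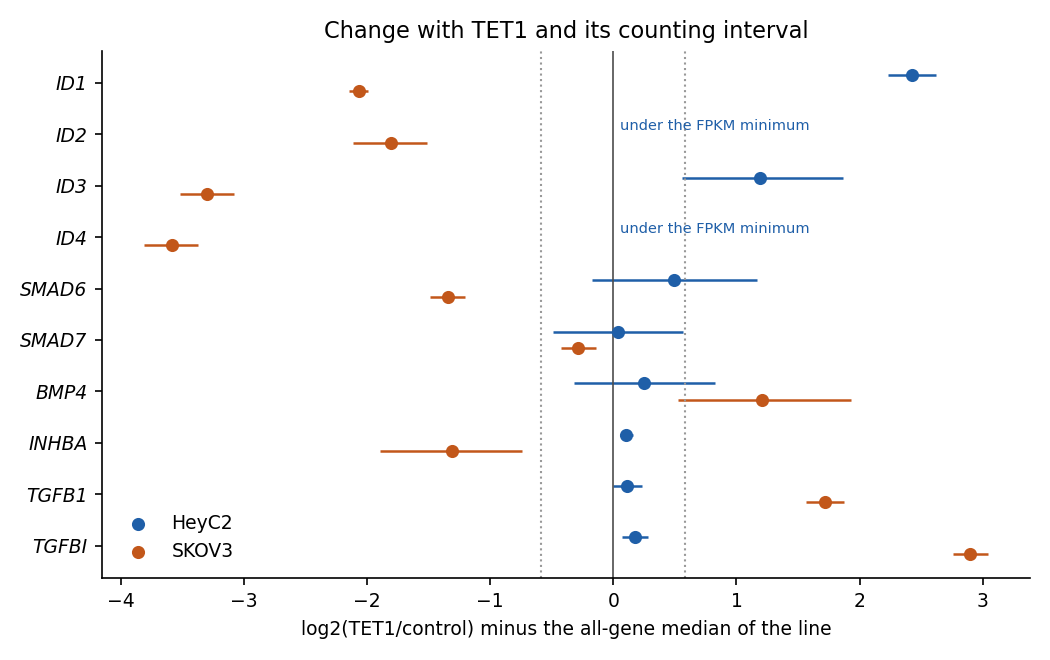
Relative log2 change of each gene with TET1, log2(TET1/control) without a pseudocount minus the all-gene median of the cell line (blue, HeyC2; orange, SKOV3); horizontal lines are 95% counting intervals from approximate fragment numbers, and dotted lines mark 1.5-fold. The median subtracted was that of changes taken with the pseudocount of 1. The 4 ID genes and SMAD6 lie left of the dotted line in SKOV3, TGFB1 and TGFBI lie right of it, and in HeyC2 ID1 and ID3 are the points furthest to the right.

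Among the ligand genes, TGFB1 (chromosome 19, 41807492 to 41859827, minus strand), which encodes the main TGF-β isoform, was higher in SKOV3 TET1. Its level was 23.3 FPKM in the SKOV3 control and 87.6 FPKM in TET1, a ratio of 3.76 and a relative log2 change of 1.67 with a counting interval of 1.57 to 1.88. In HeyC2 TGFB1 was at 63.1 FPKM in the control and 71.0 FPKM in TET1. The relative log2 change there was 0.11, and its counting interval of -0.002 to 0.23 includes 0. TGFB1 overlaps 3 listed genes on the other strand, of which HNRNPUL1 was at 144.0 FPKM in the SKOV3 control and 114.0 FPKM in TET1, CCDC97 at 21.4 and 19.2 FPKM, and TMEM91 at 1.24 and 6.35 FPKM.

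TGFBI (chromosome 5, 135364677 to 135399507, plus strand) encodes a secreted matrix protein named for its induction by TGF-β. In SKOV3 it was at 24.9 FPKM in the control and 211.9 FPKM with TET1, an 8.50-fold difference. The relative log2 change of 2.85 had a counting interval of 2.76 to 3.04, and 59 of 13013 genes lay higher. In HeyC2 it was at 79.1 FPKM in the control and 93.0 FPKM in TET1, a relative log2 change of 0.17. The ratio of TGFBI to TGFB1 within a library was 1.25 and 1.31 in HeyC2, and 1.07 and 2.42 in SKOV3, in control and TET1. The ratio of ID1 to TGFBI was 49.4 and 1.58 in SKOV3, and 0.51 and 2.42 in HeyC2. Fibroblast markers were higher in SKOV3 TET1 too, with a sum over 6 markers of 34.7 FPKM against 1.04 FPKM in the control and 2.14 to 2.99 FPKM in HeyC2. COL1A1 made up 27.7 FPKM of the 34.7 and LUM 4.32 FPKM, while DCN and PDGFRB were listed at 0. Their part in the difference of TGFBI was not tested.

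BMP4 (chromosome 14, 54416454 to 54425479, minus strand), a BMP ligand, was low in all libraries. It was at 2.04 FPKM in the SKOV3 control and 5.39 FPKM in TET1, about 26 and 63 fragments. The relative log2 change was 0.88, or 1.21 without a pseudocount. The lower end of its counting interval, 0.53 to 1.93, is inside the 1.5-fold limit. In HeyC2 BMP4 was at 3.90 FPKM in the control and 4.82 FPKM in TET1, with a relative log2 change of 0.19 and a counting interval of -0.32 to 0.82. INHBA (chromosome 7, 41706766 to 41745432, minus strand), which encodes the βA subunit of activin A, was abundant in HeyC2 at 128.2 FPKM in the control and 143.4 FPKM in TET1. Its relative log2 change in HeyC2 was 0.10. In SKOV3 it was at 2.11 FPKM in the control and 0.97 FPKM in TET1, a relative log2 change of -0.85, or -1.31 without a pseudocount with a counting interval of -1.90 to -0.75. INHBA passed the expression filter there through the control. The antisense gene INHBA-AS1 was at 2.37 and 5.37 FPKM in HeyC2 and listed at 0 in SKOV3.

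**Figure D3:**
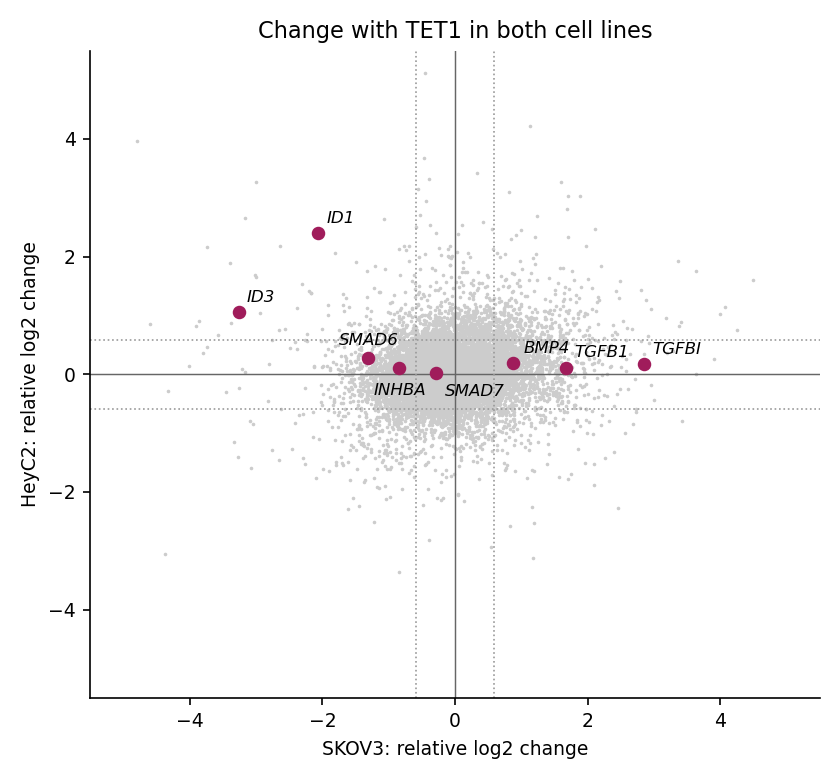
Relative log2 change with TET1 in SKOV3 (horizontal axis) and HeyC2 (vertical axis) for genes tested in both cell lines (grey) and the 8 members among them (purple); dotted lines mark 1.5-fold, and 3 genes lie outside the axes. ID1 and ID3 are in the upper left, higher in HeyC2 and lower in SKOV3, while TGFB1 and TGFBI lie to the right near the horizontal axis.

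The control libraries already differed in these genes. The tables of the cell lines were made separately, so each difference was again taken relative to the all-gene median, here -0.27 for HeyC2 over SKOV3. Of the 10 members, 4 were higher and 6 lower in the HeyC2 control, where 29.0% of 12488 tested genes were called higher and 28.6% lower. All 6 ID and inhibitory SMAD genes were lower in HeyC2 and all 4 ligand and matrix genes higher. For ID1, at 40.3 against 1232 FPKM, the relative log2 difference was -4.63, and for ID3, at 5.16 against 320.7 FPKM, it was -5.44. SMAD6, at 1.30 against 52.3 FPKM, was at -4.27, and SMAD7, at 2.74 against 37.4 FPKM, at -3.09. INHBA, at 128.2 against 2.11 FPKM, was at 5.64, with 37 of 12488 genes higher. TGFBI was at 1.90, TGFB1 at 1.67 and BMP4 at 0.96. The counting interval of BMP4, 0.49 to 1.94, starts inside the 1.5-fold limit, and BMP4 was not called at 2-fold. ID2 and ID4 passed the filter through SKOV3. They rest on about 3 fragments and 1 fragment in the HeyC2 control, and their counting intervals were -9.18 to -5.34 and -16.0 to -8.22. These differences share their control libraries with the TET1 comparisons and are not independent of them.

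The order of the members also differed between libraries. FPKM are per length, so genes can be ranked. In the HeyC2 control the order was INHBA, TGFBI, TGFB1, ID1, ID3, BMP4, SMAD7, SMAD6, ID2 and ID4, and in HeyC2 TET1 ID1 came first, with the values of the others in the same order. In the SKOV3 control ID1, ID3 and ID4 came first and INHBA and BMP4 last. In SKOV3 TET1 the order began with ID1, TGFBI and TGFB1. Intervals from counting error overlapped between neighbours for ID3 and BMP4, for BMP4 and SMAD7, for SMAD6 and ID2 and for ID2 and ID4 in the HeyC2 control. In the SKOV3 control they overlapped for SMAD6 and ID2, for TGFBI and TGFB1 and for INHBA and BMP4. In HeyC2 TET1 this held for BMP4 and SMAD7, for SMAD7 and SMAD6 and for ID2 and ID4, and in SKOV3 TET1 for ID3 and SMAD7 and for ID4 and BMP4. ID1 stood above 99.8% of detected genes in the SKOV3 control and above 87.6% in the HeyC2 control.

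The other genes of the pathway were described with lists of ligands, receptors and regulators. Their counts are read against the background shares given above. Some genes, such as SKIL, PMEPA1 and BAMBI, are on several lists and are counted in each, so the counts of these lists are not separate. Of 28 other ligand genes, 4 were tested in HeyC2, with 1 called higher and 1 lower. In SKOV3 12 were tested and 10 were called higher and 0 lower, but 5 of the 10 were under 1 FPKM in the control and so passed the filter through the TET1 library. The stress-induced ligand gene GDF15 was higher in both lines, at 3.92 and 95.01 FPKM in HeyC2 and 74.5 and 187.7 FPKM in SKOV3, in control and TET1. GDF11, a ligand whose receptors act through SMAD2 and SMAD3, was called in opposite directions, with relative log2 changes of -0.63 in HeyC2 and 1.05 in SKOV3. INHBE, which encodes an inhibin β subunit, was at 0.31 FPKM in the SKOV3 control and 10.4 FPKM in TET1, and BMP5 at 0.42 and 3.38 FPKM. INHBB and AMH in HeyC2, at relative log2 changes of 0.45 and 0.41, and BMP2 and AMH in SKOV3, at 0.48 and -0.37, were not called.

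Of 16 receptor and co-receptor genes, 11 were tested in HeyC2, with 1 higher and 3 lower. In SKOV3 10 were tested, with 6 higher and 1 lower. Of the 6, 1 was under 1 FPKM in the control and so passed the filter through the TET1 library. Of the 3 lower in HeyC2, 1 was under 1 FPKM in TET1 and passed through the control. TGFBR1, the type I TGF-β receptor, was at 9.66 and 5.08 FPKM in HeyC2 and 4.46 and 9.98 FPKM in SKOV3, relative log2 changes of -0.87 and 0.82. TGFBR2, the type II receptor, was at 17.02 FPKM in the SKOV3 control and 40.6 FPKM in TET1. BMPR1A, a type I BMP receptor, was called lower in SKOV3, at 27.7 and 19.8 FPKM, and was at 6.37 and 10.5 FPKM in HeyC2, not called. ENG, a co-receptor that is typical of endothelial cells, was at 79.4 FPKM in the HeyC2 control and 401.7 FPKM in HeyC2 TET1, a relative log2 change of 2.27. The sum of 4 endothelial markers moved the same way in HeyC2, with 19.7 FPKM in the control and 95.4 FPKM in TET1, of which CDH5 made up 18.9 and 94.6 FPKM. The other 3 markers, PECAM1, VWF and KDR, were under 1 FPKM in every library. The part of these markers in the differences of ENG and ID1 was not tested. None of the receptor-regulated and common SMAD genes was called, with 0 of 5 tested in HeyC2 and 0 of 6 in SKOV3. SMAD3 and SMAD1 were the highest of them in HeyC2, at 0.57 and 0.55, and SMAD9 and SMAD1 the lowest in SKOV3, at -0.56 and -0.47.

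Of 16 secreted antagonist genes, 7 were tested in HeyC2, with 1 higher and 1 lower, and 6 in SKOV3, with 2 higher and 1 lower. FSTL3, which binds activin, was higher in HeyC2 TET1, at 14.0 and 38.7 FPKM, and lower in SKOV3 TET1, at 107.6 and 64.5 FPKM. The BMP antagonists NOG and CHRD were called higher in SKOV3, both from under 1 FPKM in the control, at 0.25 and 2.96 FPKM and at 0.84 and 5.45 FPKM. NOG was at 13.0 and 12.0 FPKM in HeyC2. FST, which encodes the activin-binding protein follistatin, was lower in HeyC2 TET1 at 5.37 and 3.37 FPKM. Of 11 membrane and intracellular inhibitors, 10 were tested in HeyC2, with 1 higher and 1 lower, and 11 in SKOV3, with 3 higher and 1 lower. BAMBI, a pseudoreceptor, was at 14.5 and 6.67 FPKM in SKOV3 and 5.47 and 5.41 FPKM in HeyC2. Of 12 genes for storage and activation of latent TGF-β, 8 were tested in HeyC2, with 2 higher and 1 lower. In SKOV3 10 were tested, with 5 higher and 2 lower. Of the 5, 1 was under 1 FPKM in the control and so passed the filter through the TET1 library. LTBP3, a latent TGF-β binding protein, was higher in both lines, at 86.9 and 143.0 FPKM in HeyC2 and 7.84 and 74.5 FPKM in SKOV3. LTBP4 was at 6.18 and 48.0 FPKM in SKOV3, while the activators THBS1 and ITGB8 were called lower there, at 74.96 and 29.2 FPKM and at 9.28 and 4.38 FPKM.

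**Figure D4:**
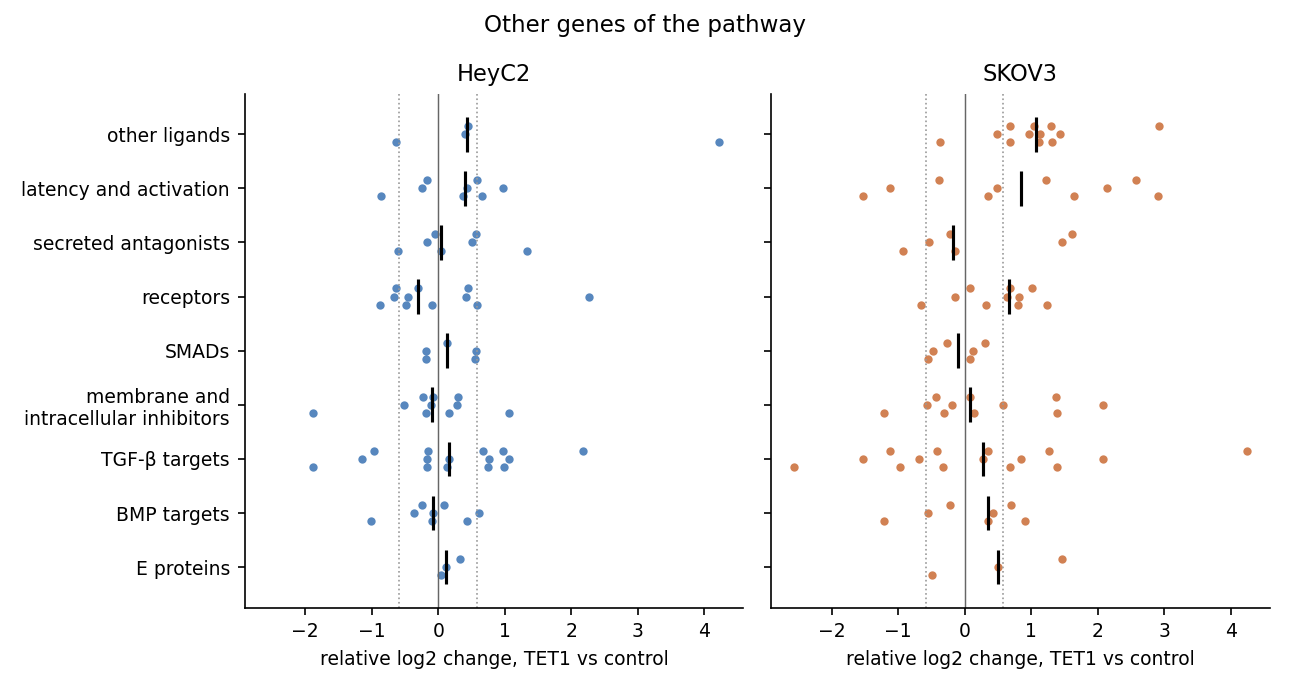
Relative log2 change with TET1 of the other pathway genes that passed the expression filter, by list (left, HeyC2; right, SKOV3); each point is a gene, black bars are list medians and dotted lines mark 1.5-fold. The medians of ligands, latency genes and receptors in SKOV3 are 1.08, 0.86 and 0.66, and no SMAD gene lies outside the dotted lines in either cell line. These medians include 5 ligands, 1 latency gene and 1 receptor called higher from under 1 FPKM in the control. They passed the filter through the TET1 library, which raises such medians. A gene on several lists is drawn in each.

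Other target genes of the pathway were mixed. Of 17 TGF-β targets, 15 were tested in each line. In HeyC2 7 were called higher and 3 lower, and in SKOV3 6 higher and 5 lower, with list medians of 0.16 and 0.28. Of those called higher, 2 in each line were under 1 FPKM in the control and passed the filter through the TET1 library. SKIL, a negative regulator that TGF-β induces, was higher in both lines, at relative log2 changes of 1.07 and 1.39. PMEPA1, another induced inhibitor, was at 7.08 and 1.27 FPKM in HeyC2 and 5.64 and 31.3 FPKM in SKOV3, relative log2 changes of -1.89 and 2.09. JUNB, a transcription factor gene, was at 2.18 in HeyC2 and -0.69 in SKOV3. TAGLN, a smooth muscle actin-binding protein gene, was likewise higher in HeyC2, from 0.58 FPKM in the control, and lower in SKOV3, at -2.57. CDKN1A, a cell cycle inhibitor gene, had the reverse pattern at -0.96 and 0.68. COL1A1 was called higher in both lines, from 0.57 and 0.32 FPKM in the controls. FN1, the fibronectin gene, was at 5557 FPKM in the HeyC2 control and 2619 FPKM in TET1. Of 12 BMP targets outside the members, 8 were tested in HeyC2, with 1 higher and 1 lower, and 7 in SKOV3, with 2 higher and 1 lower. Beside BAMBI in SKOV3, these were GATA2 at 0.61 and TBX3 at -1.02 in HeyC2, and HEY1 at 0.70 and RUNX2 at 0.91 in SKOV3. The lowest gene of this list in SKOV3 was BAMBI at -1.21. Of the E protein genes, whose products ID proteins bind, TCF3 and TCF12 were called in neither line. TCF4 was called higher in SKOV3, at 0.30 and 3.11 FPKM, and passed the filter there through the TET1 library.

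The genes whose levels over the 4 libraries were most like those of single members were found by Euclidean distance of log2 values centred on each gene's mean, among 11133 genes. Nearest to ID1 were NID2, ANKRD1 and SDPR, at distances of 0.54, 0.83 and 0.89. ANKRD1, at 0.07 FPKM in the HeyC2 control and 1.96 FPKM in HeyC2 TET1, passed the filter there through the TET1 library. NID2 was at 1.22 and 7.67 FPKM in HeyC2 and 43.4 and 17.1 FPKM in SKOV3, in control and TET1. Nearest to TGFBI were TBKBP1, SYNPO and PCOLCE, at 0.39, 0.43 and 0.47, and nearest to SMAD7 LOC100506476, PRR5L and SDC2, at 0.15, 0.19 and 0.23. PCOLCE, at 0.19 FPKM in the SKOV3 control and 5.28 FPKM in SKOV3 TET1, passed the filter there through the TET1 library.

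The promoters of the members were compared in RefSeq windows on GRCh38.p14, from 250 bases before to 50 after the annotated start, because TET1 acts on methylated cytosines in CpG dinucleotides. All 10 members had at least 1 window, and SMAD7 and BMP4 had 3 each, 14 in all. The ratio of observed to expected CpG was at least 0.6 in 12 of the 14 windows, and in at least 1 window of 9 of the 10 members. Among all 35116 windows, 48.9% were at or above 0.6. The ratio was 0.77 for ID1, 0.94 for ID2, 1.02 for ID3 and 0.91 for ID4. It was 0.69 for TGFBI and 0.65 for TGFB1. Only INHBA had no window above 0.6, with a ratio of 0.07 that was higher than in 6.21% of all windows. CpG-rich windows stood before genes that were called higher and genes that were called lower with TET1 in SKOV3. INHBA, the CpG-poor member, was called lower there. Methylation of these windows was not examined here, and its part in the differences was not tested.

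**Figure D5:**
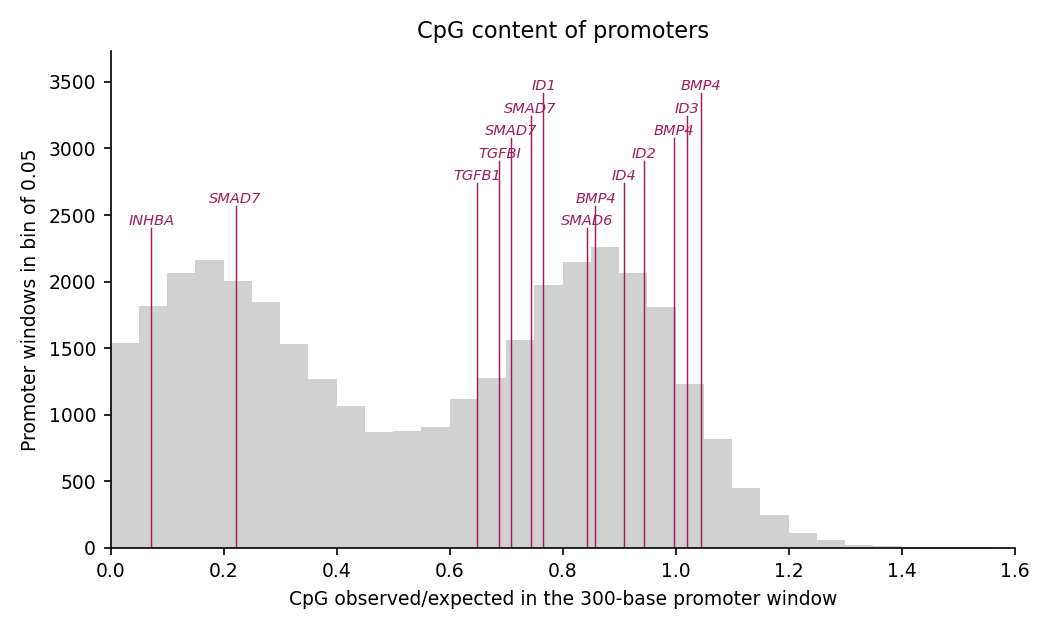
Ratio of observed to expected CpG in RefSeq promoter windows (grey bars, number of all windows in bins of 0.05; purple lines, windows of the 10 genes, each named above its line); 6 windows at or above 1.6 are not drawn. The ID genes, SMAD6 and BMP4 lie in the CpG-rich peak, and INHBA lies in the CpG-poor peak at 0.07.

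The 250 bases before the start are printed for 4 members, 5′ to 3′ on the strand of the gene, with each CpG in capitals. ID1 and ID3 are shown because their calls were opposite in HeyC2 and SKOV3, TGFBI as the gene with the largest increase in SKOV3 among the members, and INHBA as the CpG-poor one. On GRCh38.p14 the stretches are chr20:31605039-31605288 (plus strand) for ID1, chr1:23559502-23559751 (minus strand) for ID3, chr5:136028738-136028987 (plus strand) for TGFBI and chr7:41703091-41703340 (minus strand) for INHBA. They hold 19, 24, 20 and 1 CpG.
ID1: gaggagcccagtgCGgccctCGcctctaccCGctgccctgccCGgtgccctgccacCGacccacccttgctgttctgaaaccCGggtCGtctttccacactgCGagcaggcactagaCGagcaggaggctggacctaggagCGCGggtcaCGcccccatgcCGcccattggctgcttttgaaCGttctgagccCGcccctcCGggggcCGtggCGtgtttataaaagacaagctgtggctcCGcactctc
ID3: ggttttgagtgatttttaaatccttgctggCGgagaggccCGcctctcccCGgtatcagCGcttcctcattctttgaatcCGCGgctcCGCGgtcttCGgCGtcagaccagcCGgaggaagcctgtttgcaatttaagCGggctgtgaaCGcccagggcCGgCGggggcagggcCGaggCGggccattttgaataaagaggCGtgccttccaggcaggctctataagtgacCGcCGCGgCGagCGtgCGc
TGFBI: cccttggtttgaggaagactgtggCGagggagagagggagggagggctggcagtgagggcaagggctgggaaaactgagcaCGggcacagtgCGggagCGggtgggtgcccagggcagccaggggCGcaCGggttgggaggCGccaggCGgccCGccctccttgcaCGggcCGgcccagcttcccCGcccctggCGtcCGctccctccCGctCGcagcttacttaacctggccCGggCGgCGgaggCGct
INHBA: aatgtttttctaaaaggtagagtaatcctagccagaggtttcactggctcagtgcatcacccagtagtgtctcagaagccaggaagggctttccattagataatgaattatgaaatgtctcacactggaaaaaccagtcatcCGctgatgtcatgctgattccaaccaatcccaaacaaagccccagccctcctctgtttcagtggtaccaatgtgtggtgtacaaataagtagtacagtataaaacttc

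Short motifs were searched on both strands of the windows. The SMAD-binding core CAGAC was found in windows of 5 of the 10 members (ID3, ID4, SMAD7, BMP4 and INHBA), 8 of the 14 windows, and 45.3% of all windows hold it. The GC-rich motif GGCGCC, which BMP-activated SMADs bind, was found in BMP4 and TGFBI, 2 of the 14 windows, and in 19.2% of all windows. GGNGCC followed 5 bases later by GTCT, the joint form known from BMP response elements, was in 0 of the 14 windows and in 0.444% of all windows. The E-box CANNTG was present in windows of 6 members and the SP1 box GGGCGG in windows of 7, in 7 and 8 of the 14 windows, against 68.7% and 45.0% of all windows. In the stretches printed above, CAGAC of ID3 begins at position -147 and GGCGCC of TGFBI at position -111, counted from the start. A match is a description of these letters, and distal elements were not searched.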

How the data were processed

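RNA-seq data of HeyC2 and SKOV3 cells were used, 1 library per condition. Per the labels, the authors aligned paired-end TruSeq reads to hg19 with Bowtie2 2.2.6 and quantified them with RSEM 1.2.17; the deposited values are FPKM. The annotation is not given in the sources used here. The TET1 columns carry a constant that sets GAPDH to its control value. It was recovered from the value steps (0.01 FPKM before scaling), on which 100% of distinct values below 40 FPKM fall, and was divided out before the pseudocount of 1. A fold on this scale understates changes of low genes.

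Fragments were approximated from the spacing of low FPKM and from GENCODE 44 transcript lengths (GRCh37, the build of hg19). From them came 95% intervals, exact binomial for ratios and Poisson for levels, which cover counting error only and do not stand for replicates. Gene coordinates came from GENCODE by symbol.

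Named genes were the members, TET1, GAPDH, up to 2 highest and 2 lowest genes of each list in each cell line, genes called in both lines, and the 3 genes nearest to ID1, SMAD7 and TGFBI. The HeyC2 value of BAMBI was added after it was seen. A gene of the TGF-β target list is counted but not reported here by name. The members and lists were chosen with earlier results of these data known. Alternatives were other pseudocounts, filters, scalings and thresholds and a correction for GC content and length, for which 92.0% and 92.1% of tested genes had values. The calculations were tested on simulated data. Python 3.11.15, numpy 2.4.6, pandas 2.3.3, scipy 1.17.1 and matplotlib 3.10.9 were used.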

Additional observations from a re-analysis of the deposited data

Results flagged for a closer look

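ID1 and ID3 had opposite calls in HeyC2 and SKOV3, with relative log2 changes of 2.40 in HeyC2 and -2.07 in SKOV3 for ID1 and 1.05 in HeyC2 and -3.26 in SKOV3 for ID3. The 1 library pair of each line moved in its own direction, and the difference between the lines was not tested. Of all tested genes, 12.5% were called higher in HeyC2 and 18.2% lower in SKOV3. How many of all genes had opposite calls was not counted. The direction of both genes held under every scaling, pseudocount and filter tried.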

How the results depend on the processing

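Calls of members in HeyC2 were ID1 and ID3 in every setting tried, and SMAD6 was added at a threshold of 1.2-fold. In SKOV3 the calls kept their direction in all settings in which the gene was tested. BMP4 and INHBA were not called at a threshold of 2-fold and not tested under a minimum mean of 5 FPKM, and SMAD7 was called lower at 1.2-fold. The median of members in SKOV3 was -1.35 with a pseudocount of 0.01 and -1.44 over the 8 members at a minimum mean of 5 FPKM, in place of -1.08. In the control comparison BMP4 was not called at 2-fold and not tested under that minimum. The median there was -4.27 over the 9 members at that minimum, in place of -3.68. Under that filter fewer members were tested and the all-gene median also shifted. ID1 in SKOV3 was at -1.97 under it, in place of -2.07. Over all settings, ID1 ranged from 2.35 to 2.53 in HeyC2 and from -2.10 to -1.87 in SKOV3, and TGFBI in SKOV3 from 2.84 to 3.04. Of the single-gene values, 157 of the TET1 comparisons moved by less than the SD over all tested genes and 0 by more. In the control comparison 4 moved by more and 75 by less. On the values as deposited, with the pseudocount on the scaled column, the calls were the same. No paired analysis was possible because each condition has 1 library. Depth limits ID2 and ID4 in HeyC2 and leaves wide counting intervals for ID3, SMAD6, SMAD7 and BMP4 in HeyC2.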
